A study of Mus musculus with 9 samples.

Results

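Glycolysis splits glucose into pyruvate in the cytosol, and lactate dehydrogenase can then turn pyruvate into lactate. The retina is known for making lactate even where oxygen is plentiful, and photoreceptors are the main place of this aerobic glycolysis. The 10 genes described here encode enzymes of the pathway, namely the hexokinases Hk1 and Hk2, the phosphofructokinases Pfkl, Pfkm and Pfkp, the aldolases Aldoa and Aldoc, the glyceraldehyde 3-phosphate dehydrogenase Gapdh, the pyruvate kinase Pkm and the lactate dehydrogenase Ldha. They were chosen as a pathway, by gene name and with earlier results of these data known, and all 10 were found among the 15228 genes of the expression table.

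The cells came from retinas of wild-type mice and were sorted as retinal ganglion cells (RGCs), the neurons whose axons form the optic nerve. The sort kept cells that carried CD90.2 and lacked 3 other surface antigens. The group Ctrl was normal, without injury. The group ONC was sampled 3 d after optic nerve crush, with an intraocular injection of vehicle. The group TPEN was sampled 3 d after the same crush, with an injection of TPEN, a chelator of zinc, at 100 μM in place of vehicle. Surgery was done at an age of 6 to 8 weeks on C57BL/6J mice of both sexes. Each group had 3 libraries, and no source used here says that replicate libraries were made from different animals, so that p-values measure the spread between libraries, which may be technical.

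The libraries held between 19946993 and 23109754 reads. The rod gene Gnat1 took the most reads in each of the 9 libraries (2.91% to 3.65%), whereas the RGC markers Rbpms, Pou4f1 and Slc17a6 averaged at most 0.605 RPKM in any group. All 10 RGC markers found, several of which other retinal neurons also use, summed to 364 to 374 RPKM in Ctrl. Most of this was Nefl, at a mean of 258 RPKM. The enzyme levels below are therefore those of a sorted mixture in which rod transcripts were abundant. In such bulk libraries, fewer cells of one type and less RNA per cell cannot be told apart. Levels are given in RPKM, that is reads scaled to the exon length of the gene and to the depth of the library. A gene is said to have risen or fallen where limma, fitted to log2(RPKM + 0.1) over 13566 genes, gave an adjusted p-value under 0.05.

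Together the 10 genes held 0.660% to 0.691% of the reads in Ctrl, 0.647% to 0.655% in ONC and 0.689% to 0.697% in TPEN. Each was well covered, with at least 513 reads in every library for Pfkm, the lowest, and 39646 to 47588 reads for Pkm, the highest. In Ctrl, the levels per kilobase followed the order Pkm, Aldoa, Ldha, Hk1, Hk2, Gapdh, Pfkp, Aldoc, Pfkl and Pfkm. Within that order the library values of Ldha and Hk1 overlapped, as did those of Hk1 and Hk2, those of Pfkp and Aldoc and those of Aldoc and Pfkl, and the other neighbours were apart. In ONC, Hk1 came right after Aldoa and above Ldha, and Hk2 after Ldha. The lengths behind these levels sum all annotated exons of a gene, which came to 1.03 times the main transcript for Pfkm and 2.91 times for Gapdh, so an order between genes depends on them, whereas a comparison between groups does not.

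Promoter sequences are shown for the 5 genes that changed after crush, and for Ldha, which did not pass but held the most matches, to let their upstream letters be compared. Hypoxia-inducible factors, which are known to switch many glycolytic genes, bind cores with the letters ACGTG or GCGTG. These letters were searched on both strands in the 250 bases before each RefSeq start (GRCm38.p6) and are in capitals below; capitals that run together are overlapping or adjoining matches. The window with the most matches is printed for each gene, 5′ to 3′ on the strand of the gene.
Hk1, chr10:62340422-62340671, minus strand: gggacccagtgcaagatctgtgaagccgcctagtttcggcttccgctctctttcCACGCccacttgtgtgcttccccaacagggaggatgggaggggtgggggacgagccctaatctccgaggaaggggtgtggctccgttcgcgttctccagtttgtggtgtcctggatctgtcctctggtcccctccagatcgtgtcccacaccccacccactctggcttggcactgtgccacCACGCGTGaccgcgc
Hk2, chr6:82774455-82774704, minus strand: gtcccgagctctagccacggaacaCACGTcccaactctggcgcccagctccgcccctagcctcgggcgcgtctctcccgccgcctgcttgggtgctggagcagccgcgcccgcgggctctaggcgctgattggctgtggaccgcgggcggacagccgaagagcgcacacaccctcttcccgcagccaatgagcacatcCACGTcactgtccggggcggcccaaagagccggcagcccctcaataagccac
Aldoa, chr7:126799179-126799428, minus strand: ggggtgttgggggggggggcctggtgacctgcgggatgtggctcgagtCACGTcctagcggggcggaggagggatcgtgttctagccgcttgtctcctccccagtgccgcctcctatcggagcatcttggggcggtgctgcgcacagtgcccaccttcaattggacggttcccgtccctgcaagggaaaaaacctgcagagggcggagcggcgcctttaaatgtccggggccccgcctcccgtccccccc
Gapdh, chr6:125165774-125166023, minus strand: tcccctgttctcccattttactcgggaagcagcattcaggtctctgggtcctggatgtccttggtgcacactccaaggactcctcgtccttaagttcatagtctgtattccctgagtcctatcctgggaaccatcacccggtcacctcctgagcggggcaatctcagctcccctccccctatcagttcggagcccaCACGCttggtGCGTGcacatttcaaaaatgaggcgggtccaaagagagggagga
Pkm, chr9:59656977-59657226, plus strand: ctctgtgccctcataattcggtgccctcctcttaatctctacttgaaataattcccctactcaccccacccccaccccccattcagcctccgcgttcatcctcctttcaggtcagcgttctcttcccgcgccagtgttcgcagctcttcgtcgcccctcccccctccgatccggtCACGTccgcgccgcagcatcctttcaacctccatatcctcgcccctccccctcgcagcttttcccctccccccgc
Ldha, chr7:46845554-46845803, plus strand: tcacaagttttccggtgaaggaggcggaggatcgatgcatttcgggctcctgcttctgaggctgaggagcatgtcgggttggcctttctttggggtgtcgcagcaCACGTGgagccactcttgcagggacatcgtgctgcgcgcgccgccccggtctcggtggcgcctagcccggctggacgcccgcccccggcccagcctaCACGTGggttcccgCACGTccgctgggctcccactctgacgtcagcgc
The windows of Hk1 and Gapdh held GCGTG, at 3 and 2 places, and those of Hk2, Aldoa and Pkm held ACGTG, at 2, 1 and 1 places. The window of Ldha held ACGTG at 5 places, counted on both strands, among them 2 overlapping pairs. Of all 19 windows of the 10 genes, several of which overlap, 15 (78.9%) held at least 1 of the motifs, and so did 12679 of 32851 windows in the table (38.6%). ACGTG was in 7 of the 19 windows (36.8%) and in 16.6% of all windows. Both motifs contain CG, and the windows compared were not matched for base composition. Where windows of a gene overlap, a shared match was counted in each. A match is a description of the letters and not a binding site.

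Hexokinase, which traps glucose in the cell as glucose 6-phosphate, was the step whose genes differed most between the groups. After crush Hk1, the form found in most tissues, rose and Hk2, which is known from photoreceptors, muscle and tumours, fell. Hk1 (chromosome 10, 62268855 to 62379908, minus strand) was at 134, 134 and 137 RPKM in the Ctrl libraries, at 202, 206 and 203 RPKM in ONC and at 191, 188 and 190.0 RPKM in TPEN. The groups did not overlap, and both injured groups were above Ctrl. Its mean was 1.51 times higher in ONC than in Ctrl (log2 fold change 0.59 ± 0.02, SE, adjusted p = 1.08e-07), the largest change among the 10 genes in the 3 comparisons. In TPEN it was 1.40 times the mean of Ctrl (log2 fold change 0.49, adjusted p = 8.36e-07) and slightly lower than in ONC (log2 fold change -0.10, adjusted p = 0.023).

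Hk2 (chromosome 6, 82725025 to 82774454, minus strand) was at 131, 134 and 137 RPKM in Ctrl, at 95.8, 96.4 and 94.6 RPKM in ONC and at 102, 103 and 106 RPKM in TPEN. Again the groups did not overlap, with TPEN between ONC and Ctrl and nearer to ONC. The mean of ONC was 0.714 times that of Ctrl (log2 fold change -0.48 ± 0.03, SE, adjusted p = 2.08e-06). TPEN was 0.773 times Ctrl (log2 fold change -0.37, adjusted p = 2.25e-05) and 1.08 times ONC (log2 fold change 0.11, adjusted p = 0.0358). The TPEN/ONC calls of both hexokinases were lost when any 1 of the ONC or TPEN libraries was left out, and that of Hk2 also without Ctrl replicate 2. The adjusted p then ran from 0.0599 to 0.0927 for Hk1, with log2 fold changes of -0.11 to -0.09, and from 0.0552 to 0.127 for Hk2, with log2 fold changes of 0.10 to 0.13.

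**Figure D1:**
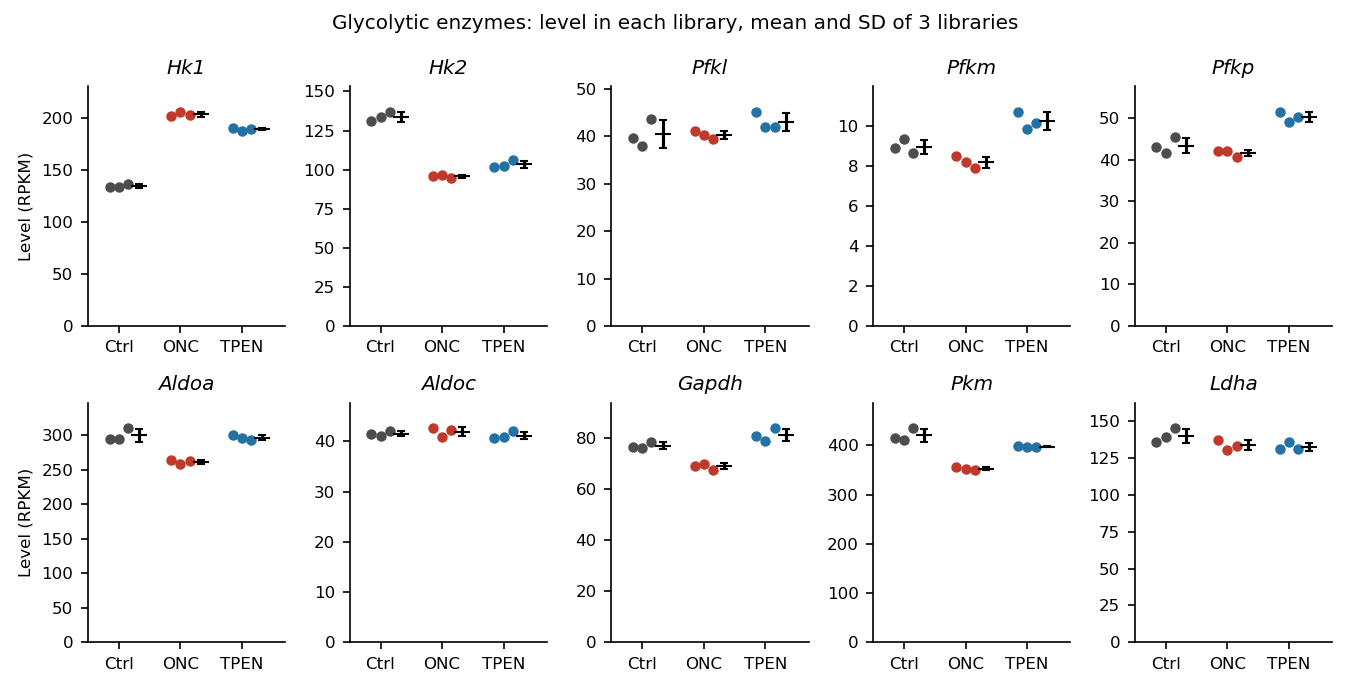
Level of each of the 10 genes in RPKM (y axis, from 0) in the 9 libraries of the groups Ctrl, ONC and TPEN (x axis), with 1 point per library and the mean and SD of each group to the right of its points. Hk1 stood at 134 to 137 RPKM in Ctrl and 202 to 206 RPKM in ONC, Hk2 at 131 to 137 RPKM in Ctrl and 94.6 to 96.4 RPKM in ONC, and the Aldoc points of all groups lay between 40.7 and 42.6 RPKM.

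The balance of the pair is free of the scaling between libraries when taken as a share within each library. Hk2 made up 49.5%, 49.9% and 49.98% of the summed level of Hk1 and Hk2 in Ctrl, 32.2%, 31.8% and 31.8% in ONC and 34.8%, 35.3% and 35.8% in TPEN. The groups did not overlap, and the mean of ONC fell by 17.8 percentage points from that of Ctrl and the mean of TPEN was 3.37 points above that of ONC. The 3 groups differed in an exact permutation test (280 arrangements, p = 0.00357, the smallest value the design can give, adjusted over 6 shares to 0.0143). Counted in reads instead of levels per kilobase, the share in ONC fell by 16.2 points from that in Ctrl. The summed level of both genes averaged 269 ± 4.90 (Ctrl), 299 ± 2.99 (ONC) and 293 ± 2.67 RPKM (TPEN; SD, n = 3).

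Hkdc1, another hexokinase gene, was far lower. It averaged 1.61 ± 0.18 (Ctrl), 2.15 ± 0.15 (ONC) and 3.96 ± 0.13 RPKM (TPEN; SD, n = 3). It was higher in TPEN than in ONC (log2 fold change 0.86, adjusted p = 0.000997) and than in Ctrl (log2 fold change 1.25, adjusted p = 3.18e-05). The smaller rise in ONC/Ctrl (log2 fold change 0.40, adjusted p = 0.0195) missed the threshold without Ctrl replicates 1 or 3 or without ONC replicates 1 or 3, with log2 fold changes of 0.32 to 0.39 and adjusted p of 0.0566 to 0.0709. Hk3, the hexokinase of white blood cells, averaged 0.116 (Ctrl), 0.835 (ONC) and 0.194 RPKM (TPEN) and was under the minimum of 0.5 RPKM over all libraries, so it was not tested.

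Phosphofructokinase commits the sugar to glycolysis, and its 3 genes encode subunits that are named after liver, muscle and platelets and that mix in most tissues. None of the 3 passed the limma test in ONC/Ctrl (1, Pfkm, at an unadjusted p under 0.05 and 0 with voom), and Pfkm and Pfkp rose in TPEN/ONC. Pfkp (chromosome 13, 6579768 to 6648777, minus strand) was at 43.1, 41.7 and 45.5 RPKM in Ctrl, at 42.0, 42.0 and 40.7 RPKM in ONC and at 51.6, 49.1 and 50.2 RPKM in TPEN. All TPEN libraries were above all others, and Ctrl and ONC overlapped. Its log2 fold change was 0.27 in TPEN/ONC (adjusted p = 0.00266) and 0.21 in TPEN/Ctrl (adjusted p = 0.00506).

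Pfkm (chromosome 15, 98092589 to 98132447, plus strand) was at 8.92, 9.32 and 8.64 RPKM in Ctrl, at 8.47, 8.17 and 7.89 RPKM in ONC and at 10.7, 9.85 and 10.2 RPKM in TPEN. The groups did not overlap, with ONC lowest and TPEN highest. It rose in TPEN/ONC (log2 fold change 0.32 ± 0.05, SE, adjusted p = 0.00688). The difference in TPEN/Ctrl (log2 fold change 0.19, adjusted p = 0.0442) missed the threshold when any 1 of the 9 libraries was left out, with log2 fold changes of 0.16 to 0.22 and adjusted p of 0.0527 to 0.137, and that in ONC/Ctrl did not pass (log2 fold change -0.13, adjusted p = 0.129). Pfkl (chromosome 10, 77986947 to 78010083, minus strand) was at 39.7, 38.0 and 43.8 RPKM in Ctrl, at 41.1, 40.2 and 39.5 RPKM in ONC and at 45.2, 42.1 and 41.9 RPKM in TPEN, and passed in no comparison. The TPEN libraries were above those of ONC, and Ctrl overlapped both. The 95% interval of its log2 fold change was -0.12 to 0.11 in ONC/Ctrl and -0.02 to 0.21 in TPEN/ONC.

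Within the step, Pfkp held a slightly larger share and Pfkl a slightly smaller one in TPEN. The level of Pfkl was not lower there, with means of 40.5 (Ctrl), 40.3 (ONC) and 43.1 RPKM (TPEN). Shares of the same sum are tied, so those of Pfkl and Pfkp are not separate results. Pfkp made up 46.8% ± 0.27 of the 3 genes in Ctrl, 46.2% ± 0.31 in ONC and 48.6% ± 0.57 in TPEN (SD, n = 3), and Pfkl 43.5% ± 1.04, 44.7% ± 0.22 and 41.6% ± 0.55. For both, the TPEN libraries lay apart from those of Ctrl and ONC, and the groups differed in the exact permutation test (p = 0.00714 each, adjusted over 6 shares to 0.0143). Without TPEN replicate 2 or 3 the adjusted p of the Pfkl share was 0.0536 or 0.0643, with differences between TPEN and Ctrl of -2.03 or -1.70 points. The share of Pfkm was 9.68% ± 0.83, 9.09% ± 0.15 and 9.88% ± 0.12, and did not pass (adjusted p = 0.239 in the exact permutation test). Without Ctrl replicate 3 it did (adjusted p = 0.0343 in the same test of all 3 groups). The ONC libraries (9.26%, 9.04% and 8.96%) then lay below those left of Ctrl (9.72% and 10.5%) and those of TPEN (9.96%, 9.75% and 9.93%). The difference between TPEN and Ctrl was then -0.22 points and was not tested alone. The summed level of the 3 genes averaged 92.9 ± 4.57 (Ctrl), 90.0 ± 1.79 (ONC) and 103.6 ± 3.43 RPKM (TPEN; SD, n = 3).

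**Figure D2:**
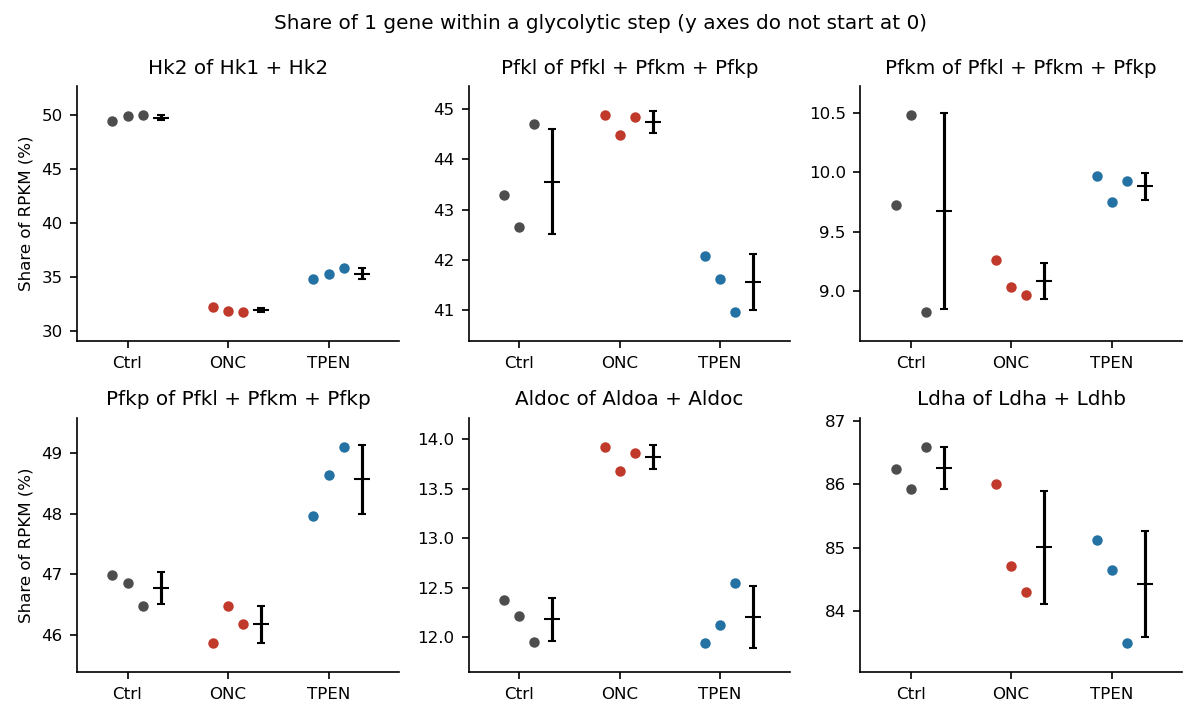
Share of 1 gene in the summed RPKM of its step (y axis, in percent, each panel with its own range that does not start at 0) in each of the 9 libraries (points) of the groups Ctrl, ONC and TPEN (x axis), with the mean and SD of 3 libraries beside them. The Hk2 share stood at 49.5% to 49.98% in Ctrl and at 31.8% to 32.2% in ONC, while the mean share of Pfkl fell by 3.18 points from ONC to TPEN.

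Aldolase splits the phosphorylated sugar into a pair of smaller ones. Aldoa, the main form of most tissues, fell in ONC/Ctrl and rose in TPEN/ONC, and Aldoc, the form of the brain and of glia and some photoreceptors, passed in no comparison. Aldoa (chromosome 7, 126795234 to 126809108, minus strand) was at 294, 294 and 309.7 RPKM in Ctrl, at 263, 258 and 262 RPKM in ONC and at 299.9, 295 and 293 RPKM in TPEN. ONC was below both other groups, which overlapped. The log2 fold change was -0.20 in ONC/Ctrl (adjusted p = 0.000705), 0.18 in TPEN/ONC (adjusted p = 0.00386) and -0.02 in TPEN/Ctrl (95% interval -0.07 to 0.04).

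Aldoc (chromosome 11, 78322968 to 78327781, plus strand) was at 41.5, 41.0 and 42.0 RPKM in Ctrl, at 42.6, 40.9 and 42.2 RPKM in ONC and at 40.7, 40.8 and 42.0 RPKM in TPEN. All groups overlapped. The 95% interval of its log2 fold change was -0.05 to 0.08 in ONC/Ctrl, and the direction of that small difference turned under quantile normalization (-0.02). The Aldoc share of both aldolases was 12.2% ± 0.22 in Ctrl, 13.8% ± 0.13 in ONC and 12.2% ± 0.31 in TPEN (SD, n = 3). The groups gave p = 0.0357 in the exact permutation test and 0.0536 after adjustment over the 6 shares, which misses the threshold, and without Ctrl replicate 1 or 3, ONC replicate 1 or TPEN replicate 1 or 3 the adjusted p was 0.0268 to 0.0482, with ONC 1.52 to 1.74 points above Ctrl.

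The lower part of the pathway yields ATP. Gapdh, the enzyme of the oxidation step, and Pkm, which makes pyruvate, both fell in ONC/Ctrl and rose in TPEN/ONC. Gapdh (chromosome 6, 125161715 to 125166467, minus strand) was at 76.2, 76.1 and 78.4 RPKM in Ctrl, at 69.1, 69.8 and 67.5 RPKM in ONC and at 80.8, 78.8 and 83.7 RPKM in TPEN. The groups did not overlap, with ONC lowest and TPEN highest. The log2 fold change was -0.16 in ONC/Ctrl (adjusted p = 0.00501) and 0.24 in TPEN/ONC (adjusted p = 0.00179), and 0.08 in TPEN/Ctrl did not pass (adjusted p = 0.134). The Gapdh transcripts have near-identical copies in 81 other genes, 76 of them annotated pseudogenes (at least 95% identity over 100 bases or more), so the level of Gapdh is uncertain by the reads that the counting gave to these copies.

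Pkm (chromosome 9, 59656368 to 59679375, plus strand), the highest of the 10 genes, was at 414, 412 and 435 RPKM in Ctrl, at 357, 351 and 349.9 RPKM in ONC and at 399, 396 and 397 RPKM in TPEN. No groups overlapped, with ONC lowest and TPEN below Ctrl. The mean of ONC was 0.839 times that of Ctrl (log2 fold change -0.25 ± 0.03, SE, adjusted p = 0.000103) and the mean of TPEN was 1.13 times that of ONC (log2 fold change 0.17, adjusted p = 0.00384). TPEN/Ctrl did not pass (log2 fold change -0.08, adjusted p = 0.075), but passed with median centring (adjusted p = 0.0383), with voom on read numbers (adjusted p = 0.00188) and with trends in GC content and length removed (adjusted p = 0.00352). The gene makes splice forms with different activity, which a level summed over the gene cannot separate, and 15.3% of its exon bases are shared with another gene on the same strand.

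Ldha, the main lactate dehydrogenase subunit of these cells, passed in no comparison. Ldha (chromosome 7, 46841475 to 46855627, plus strand) was at 136, 139 and 145 RPKM in Ctrl, at 137, 130.1 and 133 RPKM in ONC and at 131, 135 and 131 RPKM in TPEN. ONC overlapped both other groups, and the TPEN libraries lay just below those of Ctrl. The log2 fold change was -0.07 in ONC/Ctrl (95% interval -0.14 to 0.01, adjusted p = 0.189) and -0.08 in TPEN/Ctrl (95% interval -0.15 to -0.01, adjusted p = 0.145). The ONC/Ctrl difference passed under quantile normalization (log2 fold change -0.09, adjusted p = 0.0478) and with trends in GC content and length removed (log2 fold change -0.17, adjusted p = 0.00338), and the TPEN/Ctrl difference passed with these trends removed (log2 fold change -0.14, adjusted p = 0.0113), and so the data do not show that Ldha was unaltered. Of Ldha and Ldhb together, which form the mixed enzyme, Ldha held 86.2% ± 0.33 in Ctrl, 85.0% ± 0.89 in ONC and 84.4% ± 0.83 in TPEN (SD, n = 3; exact permutation test p = 0.0786, adjusted over 6 shares to 0.0943). Without ONC replicate 1 this share passed (adjusted p = 0.0471, difference between ONC and Ctrl of -1.75 points).

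**Figure D3:**
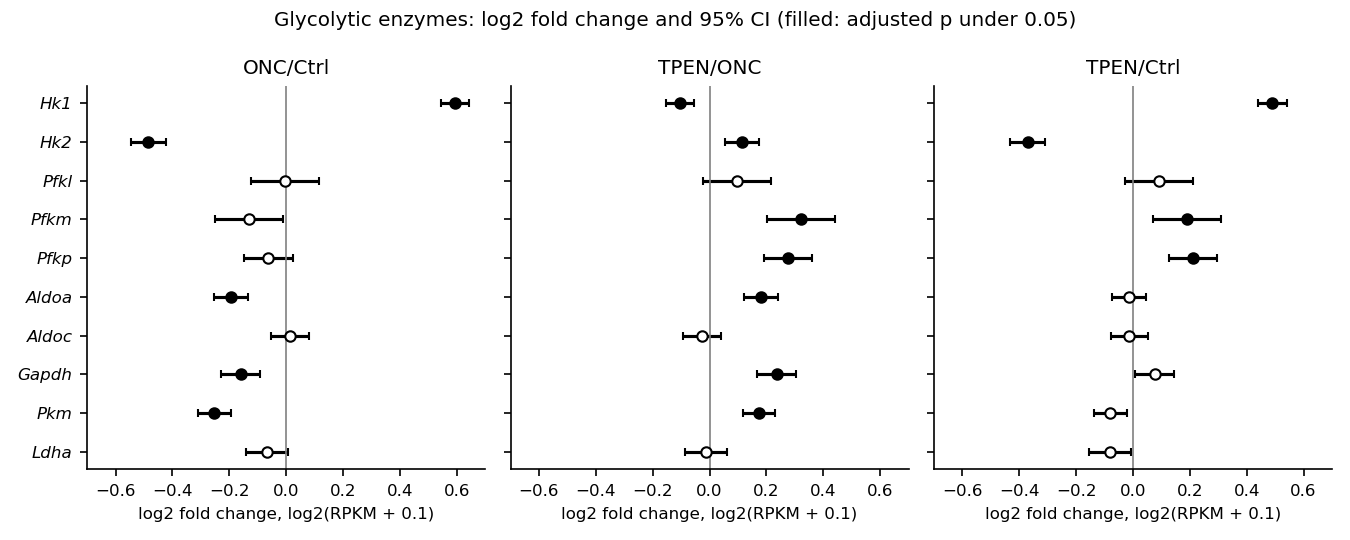
Log2 fold change of each of the 10 genes (rows) in ONC/Ctrl, TPEN/ONC and TPEN/Ctrl (panels) on the log2(RPKM + 0.1) scale (x axis), with 95% confidence intervals from limma and filled points for an adjusted p under 0.05. Hk1 (0.59) and Hk2 (-0.48) lay farthest from 0 in ONC/Ctrl, and Pfkm (0.32) and Pfkp (0.27) lay farthest to the right in TPEN/ONC.

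In ONC/Ctrl, 1 of the 10 genes rose (Hk1) and 4 fell (Hk2, Aldoa, Gapdh and Pkm). ONC had both the crush and an intraocular injection of vehicle, and Ctrl is described only as normal, so effects of crush and of injection cannot be told apart here or in TPEN/Ctrl. Among all genes tested 18.7% were called, 11.7% as higher and 6.97% as lower, and among the 4609 genes at least as abundant as Pfkm 28.5% were called. Pfkm ranked 4609 by mean level and Pfkl, the next lowest, 1084. That set therefore reaches far below most of the 10 genes, here and in the comparisons below. In 6 of the 10 genes the Ctrl and ONC libraries did not overlap, against 36.5% of all genes. The median log2 fold change of the 10 genes was -0.10, and that of all genes 0.02. Only Hk1 also reached a fold change of 1.5 (4.58% of all genes did so upwards), and it did not without ONC replicate 2 (log2 fold change 0.584), after median centring (0.574) or quantile normalization (0.536) or with trends in GC content and length removed (0.529), where 1.5-fold is 0.585 on this scale. Quantile normalization changed the balance over all genes from 1590 higher and 946 lower to 1262 higher and 1428 lower, and among the 10 genes added Ldha to those that fell.

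Most rod and cone markers moved with the enzymes that fell, and some bipolar and amacrine markers did so too. Of the 5 bipolar markers, Grm6 fell in ONC/Ctrl and none rose (median log2 fold change -0.15). Their summed level was 43.3 to 44.1 RPKM in Ctrl and 39.0 to 41.9 RPKM in ONC. Of the 2 tested amacrine markers, Slc6a9 fell (log2 fold change -0.35) and none rose. Of the 6 cone markers, 4 fell and none rose in ONC/Ctrl (median log2 fold change -0.20). Of the 7 rod markers, 5 fell and 1 rose (median -0.18), and their summed level was 18825 to 19639 RPKM in Ctrl, 16549 to 16767 RPKM in ONC and 17756 to 17866 RPKM in TPEN. In the same comparison all 7 tested microglia and macrophage markers and both astrocyte markers rose, from summed levels of 2.77 to 3.66 and 4.49 to 5.27 RPKM to 41.7 to 43.5 and 25.9 to 27.1 RPKM. Of the 6 Müller glia markers, 2 rose and 3 fell, and of the 7 tested RGC markers 2 rose (Nefm and Sncg) and 1 fell (Nefh). Rbpms, Pou4f1 and Slc17a6 were under the minimum of 0.5 RPKM and not tested. Rbpms averaged 0.605 (Ctrl) and 0.393 RPKM (ONC) and Pou4f1 0.571 and 0.183 RPKM, both lower in ONC without overlap. Slc17a6 was higher without overlap, at 0.268 (Ctrl) and 0.435 RPKM (ONC). No marker of these lists was at 0 in all libraries. The part of the mixture of cells in the enzyme levels was not tested.

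In TPEN/ONC, where both groups had the crush and an injection, 6 of the 10 genes rose (Hk2, Pfkm, Pfkp, Aldoa, Gapdh and Pkm) and 1 fell (Hk1), and 7.39% of all genes were called, 3.24% as higher and 4.14% as lower. Among genes at least as abundant as Pfkm the share called was 11.4%. Libraries of TPEN and ONC did not overlap in 8 of the 10 genes, against 28.0% of all genes. The median log2 fold change was 0.14 for the 10 genes and -0.01 for all genes. With any 1 ONC or TPEN library left out 5 of the 10 genes rose and none fell, since both hexokinases were lost. Quantile normalization turned the balance over all genes from 440 higher and 562 lower to 535 higher and 457 lower. Cone markers moved with this comparison, as 6 of 6 rose in TPEN/ONC and in TPEN/Ctrl, with summed levels of 128 to 135 RPKM in Ctrl, 111 to 119 RPKM in ONC and 199 to 202 RPKM in TPEN, while 5 of the 7 tested microglia and macrophage markers fell, to a sum of 16.1 to 16.5 RPKM in TPEN. Of the 7 tested RGC markers, Nefl, Nefm and Sncg fell in TPEN/ONC and Thy1 rose. The 10 found summed to between 373 and 395 RPKM in ONC and between 290.1 and 304 RPKM in TPEN. Most of that sum was Nefl, which averaged 264 (ONC) and 198 RPKM (TPEN), and Nefm averaged 60.2 and 44.8 RPKM. Rbpms, Pou4f1 and Slc17a6, under the minimum of 0.5 RPKM and not tested, overlapped between these groups. Of the 6 Müller glia markers, Apoe, Glul, Rlbp1 and Vim fell and Aqp4 rose, with sums of 565 to 577 RPKM in ONC and 433 to 445 RPKM in TPEN. Most of the difference between these sums lay in Apoe, which averaged 268 (ONC) and 178 RPKM (TPEN). Of the 7 rod markers, 2 rose and 1 fell. Trpm1 of the 5 bipolar markers and Slc6a9 of the 2 tested amacrine markers rose, and none of these lists fell. Of the 2 tested astrocyte markers, Gfap fell. The part of these cells in the enzyme levels was not tested.

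In TPEN/Ctrl, Hk1, Pfkm and Pfkp were higher and Hk2 was lower, 4 of the 10 genes, while 13.4% of all genes were called (8.36% higher, 5.01% lower), and 20.5% of genes at least as abundant as Pfkm. Libraries of TPEN and Ctrl did not overlap in 7 of the 10 genes, against 31.3% of all genes. The median log2 fold change of the 10 genes was 0.03, and that of all genes 0.01. Quantile normalization gave 900 higher and 830 lower over all genes in place of 1134 and 680. Of the 7 rod markers, 4 fell and none rose in TPEN/Ctrl. All 6 cone markers, all 7 tested microglia and macrophage markers and both tested astrocyte markers rose. Of the 6 Müller glia markers, Glul and Rlbp1 fell and Vim rose. Of the 7 tested RGC markers, Nefl and Nefh fell and Thy1 rose. Among those not tested, Rbpms and Pou4f1 were lower in TPEN than in Ctrl without overlap, and Slc17a6 overlapped. No bipolar or amacrine marker passed. The part of these cells in the enzyme levels was not tested. ONC/Ctrl and TPEN/Ctrl share the Ctrl libraries, and ONC/Ctrl and TPEN/ONC share the ONC libraries, so the 3 comparisons are not independent of each other.

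The other enzymes of the pathway complete the steps between these genes. Of 18 such genes, 12 were tested, and in ONC/Ctrl 1 rose (Hkdc1, above) and 4 fell, with a median log2 fold change of -0.09. Those that fell were Gpi1, the isomerase after hexokinase (log2 fold change -0.11, adjusted p = 0.0195), the kinase Pgk1 (-0.29, adjusted p = 0.00172), the mutase Pgam1 (-0.19, adjusted p = 0.00419) and the enolase Eno1 (-0.20, adjusted p = 0.0112). The call of Gpi1 was lost without ONC replicate 2 (adjusted p = 0.0736) or 3 (adjusted p = 0.066), each with a log2 fold change of -0.10. In TPEN/ONC, Pgam1 rose (log2 fold change 0.26, adjusted p = 0.00267), from 67.7 ± 1.17 to 81.0 ± 3.3 RPKM (SD, n = 3), as did Hkdc1, and the other 10 did not pass. In TPEN/Ctrl, the isomerase Tpi1 rose (log2 fold change 0.21, adjusted p = 0.029) beside Hkdc1, and Pgk1 fell (log2 fold change -0.20, adjusted p = 0.0167). The call of Tpi1 was lost without Ctrl replicate 1 or 2 or TPEN replicate 1 or 3, with adjusted p of 0.0623 to 0.0939, and that of Pgk1 without Ctrl replicate 1 or TPEN replicate 1 or 3, with adjusted p of 0.0515 to 0.058. Eno2, the enolase of neurons, averaged 25.8 ± 1.27 (Ctrl), 25.9 ± 0.60 (ONC) and 26.1 ± 0.46 RPKM (TPEN; SD, n = 3).

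Transport into and out of the cell was tested in 8 of 11 genes. In ONC/Ctrl the lactate carrier Slc16a1 fell from 33.2 ± 0.98 to 29.1 ± 0.40 RPKM (SD, n = 3; log2 fold change -0.19, adjusted p = 0.00274) and Emb, a partner of lactate carriers, rose from 0.523 to 0.972 RPKM (log2 fold change 0.77, adjusted p = 0.0210). The call of Emb was lost without Ctrl replicate 1 or 2 or ONC replicate 2, with log2 fold changes of 0.60 to 0.79 and adjusted p of 0.0511 to 0.0739, and after quantile normalization (adjusted p = 0.0587). Slc2a1, the main glucose carrier of the retina, averaged 13.9 ± 0.97 (Ctrl), 12.6 ± 0.64 (ONC) and 12.03 ± 0.78 RPKM (TPEN; SD, n = 3) and did not pass in any comparison. None of the 8 passed the limma test in TPEN/ONC (3 at an unadjusted p under 0.05 and 0 with voom).

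Among 10 tested regulators of glycolytic flux, 1 rose and 2 fell in ONC/Ctrl. Epas1, a hypoxia-inducible factor, rose from 52.6 ± 2.27 to 63.1 ± 1.52 RPKM (SD, n = 3; log2 fold change 0.26, adjusted p = 0.000783), and Hif1a, its relative, averaged 152 ± 2.66 (Ctrl), 158 ± 2.22 (ONC) and 155 ± 3.53 RPKM (TPEN; SD, n = 3) without passing. Ppargc1a, a coactivator of mitochondrial genes, fell (log2 fold change -0.24, adjusted p = 0.00628), and so did Pfkfb2, which sets the activator of phosphofructokinase (log2 fold change -0.16, adjusted p = 0.0166). The call of Pfkfb2 was lost without Ctrl replicate 1 or ONC replicate 1 or 3, with log2 fold changes of -0.16 to -0.13 and adjusted p of 0.055 to 0.0601. In TPEN/ONC, Ppargc1a rose (log2 fold change 0.19, adjusted p = 0.0483), a call lost without any 1 of the Ctrl or TPEN libraries or ONC replicate 1 or 2, with log2 fold changes of 0.16 to 0.21 and adjusted p of 0.0574 to 0.156. Of the 12 tested genes of pyruvate oxidation, 2 of the kinases that switch off pyruvate dehydrogenase changed in ONC/Ctrl in opposite directions. Pdk3 rose from 6.21 ± 0.24 to 8.53 ± 1.27 RPKM (SD, n = 3; log2 fold change 0.44, adjusted p = 0.0137), a call lost without Ctrl replicate 1 (log2 fold change 0.41, adjusted p = 0.0504). Pdk2 fell from 5.59 ± 0.39 to 4.32 ± 0.36 RPKM (SD, n = 3; log2 fold change -0.36, adjusted p = 0.0446), a call lost without any 1 of the Ctrl libraries, ONC replicate 2 or 3 or TPEN replicate 3, with log2 fold changes of -0.40 to -0.31 and adjusted p of 0.0621 to 0.128.

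**Figure D4:**
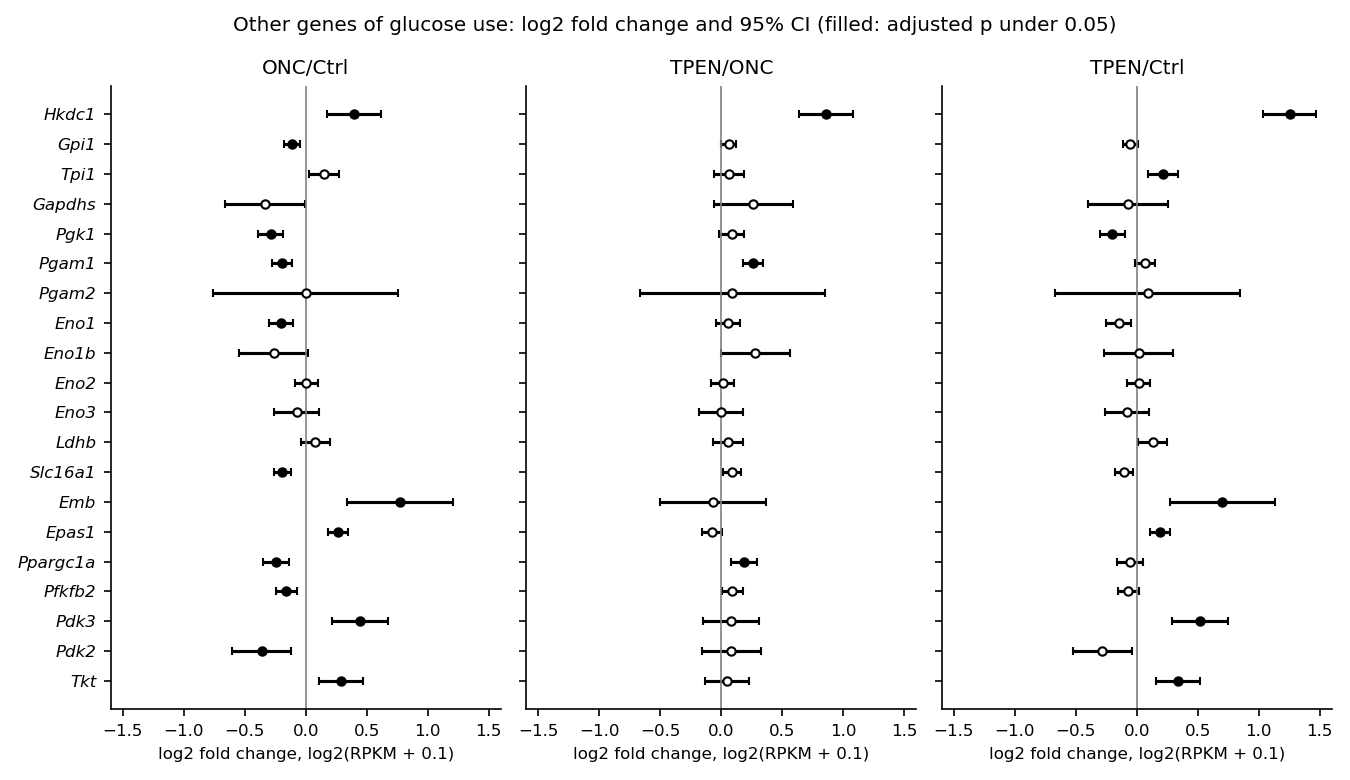
Log2 fold change (x axis, log2(RPKM + 0.1) scale) with 95% confidence intervals from limma for 20 other genes of glucose use (rows) in the 3 comparisons (panels), with filled points for an adjusted p under 0.05. In TPEN/ONC the filled points are Hkdc1 (0.86), Pgam1 (0.26) and Ppargc1a (0.19).

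The genes whose levels were most like those of Hk2 over the 9 libraries, by Pearson correlation on log2(RPKM + 0.1), were Mpp4 (0.997), Pdzph1 (0.996) and Vegfa (0.995), and those most like Pfkp were Kcnj3 (0.976), Snap25 (0.974) and Adgrv1 (0.974). These values describe 9 libraries in 3 groups and were the highest of 13566 genes. Mpp4 averaged 97.9 (Ctrl), 88.9 (ONC) and 90.9 RPKM (TPEN), and Pdzph1 74.6, 52.9 and 56.8 RPKM. Vegfa, a growth factor of vessels, averaged 34.0 (Ctrl), 25.9 (ONC) and 27.5 RPKM (TPEN). All of these had the same order of groups as Hk2, and they were picked for such likeness. Snap25, of the machinery of transmitter release, averaged 93.9 (Ctrl), 89.6 (ONC) and 103.8 RPKM (TPEN). This is the same order as in Pfkp, for its likeness to which Snap25 was picked.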

How the data were processed

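Cells sorted as RGCs gave 9 stranded mRNA libraries, 3 in each of the groups Ctrl, ONC and TPEN, with groups and replicate numbers taken from the labels. The authors trimmed reads (Trimmomatic 0.36 in the submitters' processing notes), mapped them with STAR to GRCm38/mm10, and deposited 1 table with the level of each gene in RPKM and its exon length. Its log2 fold changes, p-values and FDR come from the authors' own comparisons and were not used. The library kit tagged cDNA molecules with unique molecular identifiers (UMIs) against duplication bias. The counting program, the annotation and whether the deposited values count UMIs or all reads are not given in the sources used here.

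Every RPKM value times length was a whole multiple (within 0.001) of 1 step per library, which gave read numbers and totals of 19946993 to 23109754. A gene at 0 could hold up to 3 reads in a library, which covers counting error only. For the 13566 genes that averaged 0.5 RPKM or more, limma 3.58.1 (R 4.3.3), with an intensity trend in its variance prior, was fitted to log2(RPKM + 0.1) over all 9 libraries, with Benjamini-Hochberg adjustment over these genes and a threshold of 0.05. The added 0.1 RPKM makes fold changes of low genes smaller. The script was tested on simulated data. Shares within a step were tested two-sided by exact permutation of the 9 libraries over the 3 groups (scipy 1.17.1). With 3 against 3 libraries an exact test of a pair of groups cannot go below 0.1, so pairs were not tested.

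The 10 enzymes and all gene lists were chosen with earlier results of these data known. Named genes were all 10 enzymes, genes of the lists that passed in ONC/Ctrl (at most the 6 with the smallest adjusted p in a list), genes that complete a glycolytic step, and the 3 genes most correlated with Hk2 and with Pfkp. Alternatives were quantile normalization, median centring, no filter or a minimum of 1 RPKM, a pseudocount of 1 RPKM, voom on read numbers, a fit to 6 libraries, a block for the replicate number, the omission of each library in turn, and shares of reads. Removal of trends with GC content and length was added after the data were seen, for 13177 genes with a value (97.1%). Sequences were taken from RefSeq promoters (GRCm38.p6), which matched 10 of 10 genes.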

Additional observations from a re-analysis of the deposited data

How the results depend on the processing

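All 5 changes of the 10 enzymes in ONC/Ctrl kept their direction and passed under each of 18 alternatives, and so did Pfkm, Pfkp, Aldoa, Gapdh and Pkm in TPEN/ONC and Hk1, Hk2 and Pfkp in TPEN/Ctrl. With trends in GC content and length removed, an alternative chosen after seeing the data, 8 of the 10 enzymes were called in ONC/Ctrl, with Pfkm (log2 fold change -0.25, adjusted p = 0.012), Aldoc (-0.09, adjusted p = 0.0495) and Ldha (-0.17) added to those that fell, 5 were called in TPEN/Ctrl (2 higher and 3 lower), and the balance over all genes was 1156 higher and 1643 lower in ONC/Ctrl and 898 higher and 1309 lower in TPEN/Ctrl. Over all genes in TPEN/ONC, voom called 740 higher and 948 lower. The call of Hk1 in TPEN/ONC was lost after that removal (adjusted p = 0.0628) and after quantile normalization (log2 fold change -0.04, adjusted p = 0.397). That of Pfkm in TPEN/Ctrl was lost in 15 of 18 alternatives. No pairing by replicate number was seen, as same-numbered libraries deviated from their group means with correlations of -0.06 to 0.03. These values cannot show how the samples were made, and no source used here says whether same-numbered samples were paired. With the replicate number as a block, 5 enzymes were called in ONC/Ctrl, 5 in TPEN/ONC (without Hk1, adjusted p = 0.0694, and Hk2, adjusted p = 0.0724) and 3 in TPEN/Ctrl (without Pfkm, adjusted p = 0.0696). With 1 library left out in turn, 5 enzymes were called in ONC/Ctrl, 5 to 7 in TPEN/ONC and 3 in TPEN/Ctrl. The difference in share then ran from 1.52 to 1.74 points for Aldoc and from -1.75 to -0.89 points for Ldha (ONC against Ctrl), and from -2.44 to -1.42 points for Pfkl and from -0.22 to 0.60 points for Pfkm (TPEN against Ctrl), where the negative value of Pfkm was that without Ctrl replicate 3. Differences near 0 changed sign. These were Pfkl in ONC/Ctrl without Ctrl replicate 3 or ONC replicate 3 (0.0089; range with 1 library left out -0.050 to 0.052), Aldoa in TPEN/Ctrl after quantile normalization (0.0033) or without Ctrl replicate 3 (range -0.028 to 0.010), Aldoc in ONC/Ctrl after quantile normalization (-0.023), median centring (-0.0062) or removal of GC and length trends (-0.090), Aldoc in TPEN/ONC with GC and length trends removed (0.016), and Ldha in TPEN/ONC after quantile normalization (0.013), without ONC replicate 1 (range -0.030 to 0.0074) or with these trends removed (0.027). The cause was not tested for any of these. Pfkm, the lowest of the enzymes, rested on as few as 513 reads in a library, and the part of counting error in its calls was not tested.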

Other observations

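Genes of the branches that leave glycolysis were also tested. Of all genes tested, 18.7% were called in ONC/Ctrl, 7.39% in TPEN/ONC and 13.4% in TPEN/Ctrl. The lists of the branches are short, so the counts below are not read as a result about them. Of the 7 tested genes of the pentose phosphate pathway, which makes NADPH and ribose, Tkt, its transketolase, was called in ONC/Ctrl (log2 fold change 0.28, adjusted p = 0.0353) and in TPEN/Ctrl (log2 fold change 0.33, adjusted p = 0.0233), with means of 3.57 ± 0.29 (Ctrl), 4.36 ± 0.15 (ONC) and 4.52 ± 0.31 RPKM (TPEN; SD, n = 3). The ONC/Ctrl call of Tkt was lost without Ctrl replicate 1 or 2, TPEN replicate 2 or any single ONC library, with log2 fold changes of 0.24 to 0.30 and adjusted p of 0.0507 to 0.115. The TPEN/Ctrl call was lost without Ctrl replicate 1 or 2 or TPEN replicate 1 or 2, with adjusted p of 0.0588 to 0.0792. None of the 7 passed the limma test in TPEN/ONC, where 0 had an unadjusted p under 0.05 and voom called 0.

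Of the 9 tested genes of gluconeogenesis and glycogen, none passed in ONC/Ctrl in the limma test (1 at an unadjusted p under 0.05 and 1 with voom). Pygm, the glycogen phosphorylase of muscle, which was singled out after its values were seen, averaged 7.01 ± 0.32 (Ctrl), 7.29 ± 0.23 (ONC) and 9.49 ± 0.53 RPKM (TPEN; SD, n = 3). It rose in TPEN/ONC (log2 fold change 0.37, adjusted p = 0.00556) and in TPEN/Ctrl (log2 fold change 0.43, adjusted p = 0.0011). Pygb, the phosphorylase of the brain, averaged 11.0 ± 0.81 (Ctrl), 11.3 ± 0.84 (ONC) and 10.1 ± 0.18 RPKM (TPEN; SD, n = 3) and did not pass.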
